A study of Rattus norvegicus with 6 samples.

Results

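The immediate early stress genes are those that a cell switches on within minutes of a stimulus, before it makes any new protein. A set of 10 of them was examined in the jejunum of rats exposed to heat and shaking: Fos, Fosb, Jun, Junb, Egr1, Ier2, Ier3, Atf3, Dusp1 and Zfp36. They were chosen by name, and a probe was counted as theirs where the array's design paired it with a RefSeq accession of the gene. Of the 10 genes, 8 had a probe, among 13837 genes with a named probe in the series. No probe was matched to Fosb or Egr1, and they are not analysed here. Fos, Jun, Junb, Ier2, Ier3, Atf3, Dusp1 and Zfp36 had 1 probe each, and all 8 were well above background on all 6 arrays.

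The animals were male Sprague-Dawley rats, 6 weeks old and weighing 200 ± 20 g, housed at 25°C. The control group was left unstressed, and the S3d group was kept at 35°C for 2 h per day over 3 days while shaken at 0.1 g. Each group had 3 samples, and each sample was jejunal RNA pooled from 3 rats and hybridised to its own 1-colour Agilent array of 45018 spots. The labels give 10 rats per group and the study's methods give fewer than 3 separate pools of 3 would need, so the samples may share animals, and the p-values below measure only the spread between pools. Fewer cells of a type and less RNA per cell cannot be told apart in such tissue RNA. As a check of the tissue label, 11 of 11 measured enterocyte markers were well above background on all 6 arrays.

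The group labels were contradictory between the deposited sources. Every column of the deposited normalized table tracked a scanner file that carries the opposite group label, the one numbered alike, with Spearman correlations over probes of 0.99960 to 0.99980, against 0.942 to 0.950 for the file of its own label. No sample was reassigned. Values below are from the scanner files under the scanner files' labels, as arrays labelled S3d minus arrays labelled control, which is the direction opposite to the deposited table and to the study's reading of both its arrays and its real-time PCR, an assay run apart from the arrays. Nothing in the files themselves decides between the sets of labels. Under the table's labels every sign below turns. The 3 arrays of each group also lay on 1 slide, scanned on 1 day of its own, so slide, scan day and group cannot be told apart. The processed signal had its 75th percentile at 414.4 to 430.1 on the control arrays and 1456.1 to 1565.7 on the S3d arrays, a 3.6-fold gap that the scaling below removes.

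Fos, Fosb, Jun and Junb encode subunits of AP-1, a dimeric transcription factor, and Atf3 encodes a stress-induced factor of the related ATF family that can pair with Jun proteins. Their transcripts are induced largely through MAP kinases, which act on factors already present in the cell. Ier2 and Ier3 encode small early response proteins, of the nucleus and of survival signalling. Dusp1 and Zfp36 belong to the brakes of the response: DUSP1 removes phosphate from MAP kinases, and ZFP36 (tristetraprolin) binds AU-rich elements and speeds the decay of the transcripts that carry them. The transcripts of the early genes are short-lived.

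Of the 8 genes measured, Jun, Ier2, Ier3 and Atf3 were lower and Dusp1 was higher on the arrays labelled S3d at an adjusted p under 0.05 (limma, Benjamini-Hochberg over 31367 probes). Fos, Junb and Zfp36 did not pass. The 4 called lower stand beside 34.5% of all probes tested that were called lower, and the 1 called higher beside 39.4% called higher. In both directions together 5 of the 8 genes were called, beside 23186 of 31367 probes. The counts are not read as particular to these genes. With a fold of at least 1.5 also required, Jun, Ier2 and Atf3 remained lower, where 23.3% of probes did so, and Dusp1 remained higher, where 29.2% did so. The 3 arrays of one group did not overlap the 3 of the other for 5 of the 8 genes, against 78.3% of all probes. The median difference was -0.20 (log2) over the 8 genes and 0.08 over all probes tested.

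**Figure D1:**
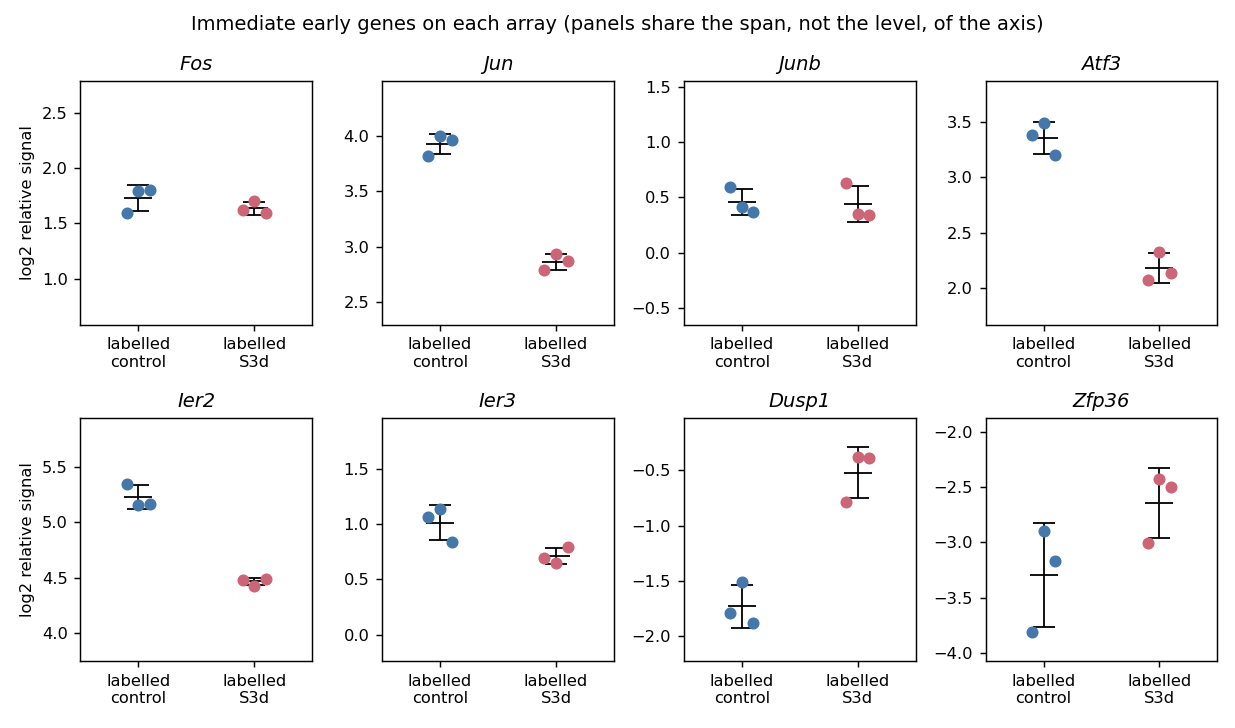
Level of each of the 8 genes on each array, as log2 processed signal relative to the array's 75th percentile, for the 3 control and the 3 S3d arrays by the scanner files' labels, with group means and SD. Jun, Ier2, Ier3 and Atf3 sit lower and Dusp1 higher on the S3d arrays with no overlap, while the points of Fos, Junb and Zfp36 overlap.

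Among the AP-1 genes, Jun differed and Fos and Junb did not pass the test. Fos is the classical partner of Jun in AP-1. The level of Fos, as log2 signal relative to each array's 75th percentile, was 1.59, 1.79 and 1.80 on control arrays 1 to 3 and 1.62, 1.70 and 1.59 on S3d arrays 1 to 3. The 2 groups overlapped. The difference was -0.09 ± 0.08 (log2, SE, n = 3 per group), with a 95% interval of -0.29 to 0.12 and an adjusted p of 0.38. A p that misses the threshold does not show that the groups were alike.

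Junb encodes an AP-1 subunit that is often a weaker activator than Jun. Its level was 0.59, 0.41 and 0.37 on the control arrays and 0.63, 0.35 and 0.34 on the S3d arrays (log2 relative signal). The groups overlapped almost entirely, with the highest value of each on the array of replicate 1. The difference was -0.02 ± 0.11 (log2, SE), with a 95% interval of -0.28 to 0.25 and an adjusted p of 0.89.

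Jun, the main DNA-binding partner of the Fos proteins, gave levels of 3.82, 4.0 and 3.96 on the control arrays and 2.79, 2.93 and 2.87 on the S3d arrays (log2 relative signal). Every S3d array lay below every control array. The means were 3.93 ± 0.10 and 2.86 ± 0.07 (SD, n = 3), a difference of -1.06 ± 0.08 (log2, SE) or 2.09-fold, with a 95% interval of -1.25 to -0.87 and an adjusted p of 7.2e-05. Jun was the only 1 of the 8 genes whose probe was printed more than once, as 10 spots on each array. These spots gave a measure of the error within an array. On the control arrays they ran from 3.74 to 3.92, from 3.92 to 4.06 and from 3.89 to 4.02. On the S3d arrays they ran from 2.63 to 2.94 over the 8 spots of array 1 not marked as outliers, from 2.83 to 3.06 on array 2 and from 2.79 to 2.98 on array 3. The SD between spots of an array was 0.040 to 0.09. No spot of an S3d array reached the lowest control spot. Spots of an array repeat the same sample and add no samples to the comparison.

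**Figure D2:**
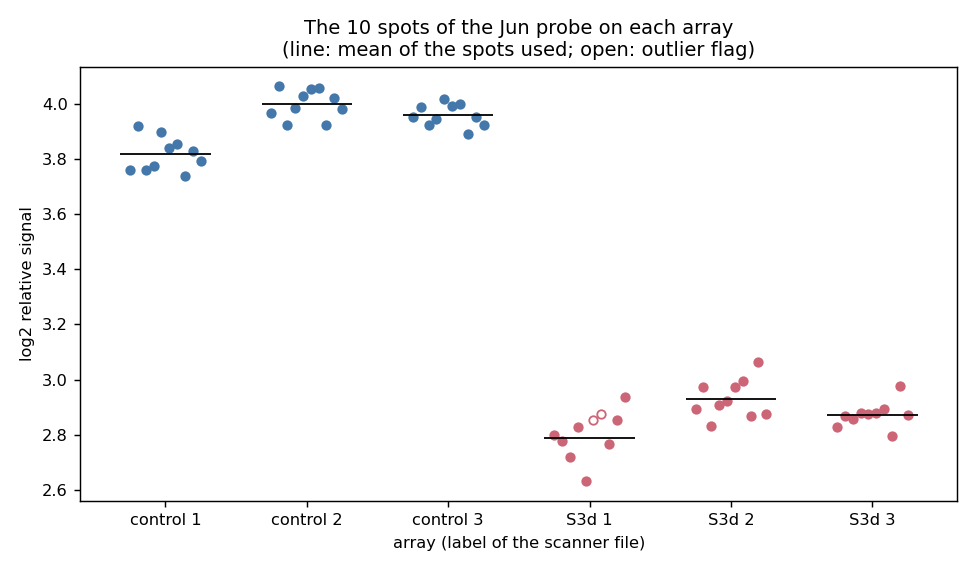
Level of each spot of the Jun probe on each of the 6 arrays (log2 processed signal relative to the array's 75th percentile, 10 spots per array and 8 on S3d array 1). The spots of every control array lie at 3.74 or above and those of every S3d array at 3.06 or below.

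Atf3, induced by many kinds of cell stress, had levels of 3.38, 3.49 and 3.20 on the control arrays and 2.07, 2.33 and 2.14 on the S3d arrays (log2 relative signal). The groups did not overlap. The difference was -1.17 ± 0.11 (log2, SE), or 2.26-fold, with a 95% interval of -1.44 to -0.91 and an adjusted p of 0.00017. It was the largest of the 4 called lower, and its interval overlapped that of Jun.

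Of the 8 genes measured, Junb, Ier2, Dusp1 and Zfp36 had a promoter in the RefSeq table used here (GRCr8). The 250 bases before the start of the 2 called genes among them, Ier2 and Dusp1, are shown because both hold the same motif and the genes differed in opposite directions. The Ier2 stretch is chr19:40399123-40399372 and that of Dusp1 is chr10:17184603-17184852, both on the plus strand and written 5′ to 3′, with the cyclic AMP response element (CRE, TGACGTCA) in capitals.
Ier2: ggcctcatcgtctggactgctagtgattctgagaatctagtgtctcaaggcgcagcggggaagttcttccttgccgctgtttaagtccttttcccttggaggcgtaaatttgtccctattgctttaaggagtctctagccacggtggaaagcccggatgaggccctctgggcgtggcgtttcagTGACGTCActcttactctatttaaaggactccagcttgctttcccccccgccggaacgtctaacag
Dusp1: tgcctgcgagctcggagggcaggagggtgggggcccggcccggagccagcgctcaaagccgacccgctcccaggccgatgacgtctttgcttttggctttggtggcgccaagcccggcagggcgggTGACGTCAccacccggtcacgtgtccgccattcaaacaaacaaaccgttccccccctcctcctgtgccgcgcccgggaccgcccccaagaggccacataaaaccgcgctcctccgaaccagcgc
The CRE began 66 bases before the start in Ier2 and 124 bases before it in Dusp1. It is the element bound by CREB and by ATF proteins, and it reads the same on both strands. Among 33469 promoters of the same length, 1.59% held it. The GC share was 53.2% in Ier2 and 68.8% in Dusp1. An AP-1 site (TGAGTCA or its reverse complement TGACTCA), held by 4.05% of all promoters, was in none of the 4 windows. The stretch of Zfp36 held a CArG box, the site of serum response factor, 32 bases before the start (1.5% of all promoters) and an EGR box (GCGTGGGCG or GCGGGGGCG, either strand) 79 bases before it (2.85%). That of Junb held TATAAA, searched on both strands and found in 12.9% of promoters, 49 bases before the start. These are matches of letters and not tests of binding.

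Ier2, a nuclear early response protein, had levels of 5.35, 5.16 and 5.17 on the control arrays and 4.48, 4.43 and 4.49 on the S3d arrays (log2 relative signal). The groups did not overlap, and the SD between the S3d arrays was 0.03. The difference was -0.76 ± 0.08 (log2, SE), or 1.7-fold, with a 95% interval of -0.95 to -0.58 and an adjusted p of 0.00023. Ier3, which modulates cell survival and NF-kB signalling, had levels of 1.06, 1.14 and 0.84 on the control arrays and 0.69, 0.65 and 0.79 on the S3d arrays. The lowest control array and the highest S3d array were close, and the groups did not overlap. The difference was -0.31 ± 0.10 (log2, SE), or 1.24-fold, with a 95% interval of -0.55 to -0.06 and an adjusted p of 0.03. The Ier3 call was lost without control array 1 (adjusted p = 0.081), control array 2 (0.09), S3d array 1 (0.069) or S3d array 2 (0.091).

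Of the genes that brake the response, Dusp1 was called higher and Zfp36 was not called. The level of Dusp1 was -1.79, -1.51 and -1.88 on the control arrays and -0.79, -0.38 and -0.39 on the S3d arrays (log2 relative signal). Every S3d array lay above every control array, so that Dusp1 differed in the direction opposite to Jun, Ier2, Ier3 and Atf3 on the same arrays. The difference was 1.21 ± 0.15 (log2, SE), or 2.31-fold, with a 95% interval of 0.83 to 1.58 and an adjusted p of 0.00066.

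The level of Zfp36 was -3.81, -2.90 and -3.17 on the control arrays and -3.01, -2.43 and -2.50 on the S3d arrays. The groups overlapped through control array 2, which lay above S3d array 1. The difference was 0.65 ± 0.27 (log2, SE), with a 95% interval of -0.02 to 1.32 and an adjusted p of 0.071. It passed without control array 2 (0.85, adjusted p = 0.04) and without S3d array 1 (0.83, adjusted p = 0.042).

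Before any scaling, the processed signal of all 8 genes was higher on the S3d arrays. Dusp1 read 116 to 150 on the control arrays and 840 to 1195 on the S3d arrays, the widest ratio of the 8 (8.3-fold). Atf3 read 3963 to 4801 on the control arrays and 6123 to 7830 on the S3d arrays, the narrowest ratio (1.59-fold). Fos and Junb, with ratios of 3.39-fold and 3.55-fold, lay near the 3.6-fold gap of the 75th percentiles. A gene called lower here is one whose unscaled signal differed by less than the 75th percentile did. Without scaling between arrays all 8 genes were called higher, as were 94.2% of all probes (1.86% lower), and all 8 did not overlap, as did 95.7% of probes. Their median was 1.65 (log2) against 1.93 over all probes. Relative to that median of all probes, the unscaled differences were -1.26 for Atf3, -1.15 for Jun, -0.85 for Ier2, -0.39 for Ier3, -0.17 for Fos, -0.10 for Junb, 0.57 for Zfp36 and 1.12 for Dusp1. Scaling by 1 constant per array moves all genes alike, so their order is fixed.

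The difference between the groups also ran with signal over the whole array. In steps of 1 log2 unit of mean level, the median difference of all probes fell from 0.13 at -3 to -2, through -0.03 at 0 to 1, to -0.32 at 3 to 4. Each gene was therefore set beside the probes within 0.5 log2 units of its own mean level. The neighbours of Ier2 (627 probes) had a median difference of -0.47, and 65.2% of them were called lower, so Ier2 lay only -0.29 from them and within their quartiles of -0.87 to 0.00. Jun lay -0.76 from the median of its neighbours (-0.30, 1296 probes) and Atf3 -0.95 from that of its own (-0.22, 1602 probes), both below the lower quartile. Dusp1 lay 1.16 above the median of its neighbours (0.04, 3332 probes) and above their upper quartile of 0.64. Ier3 lay -0.27 from the median of its neighbours and Zfp36 0.48 above, both within the quartiles. Fos and Junb lay 0.02 and 0.01 from theirs.

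**Figure D3:**
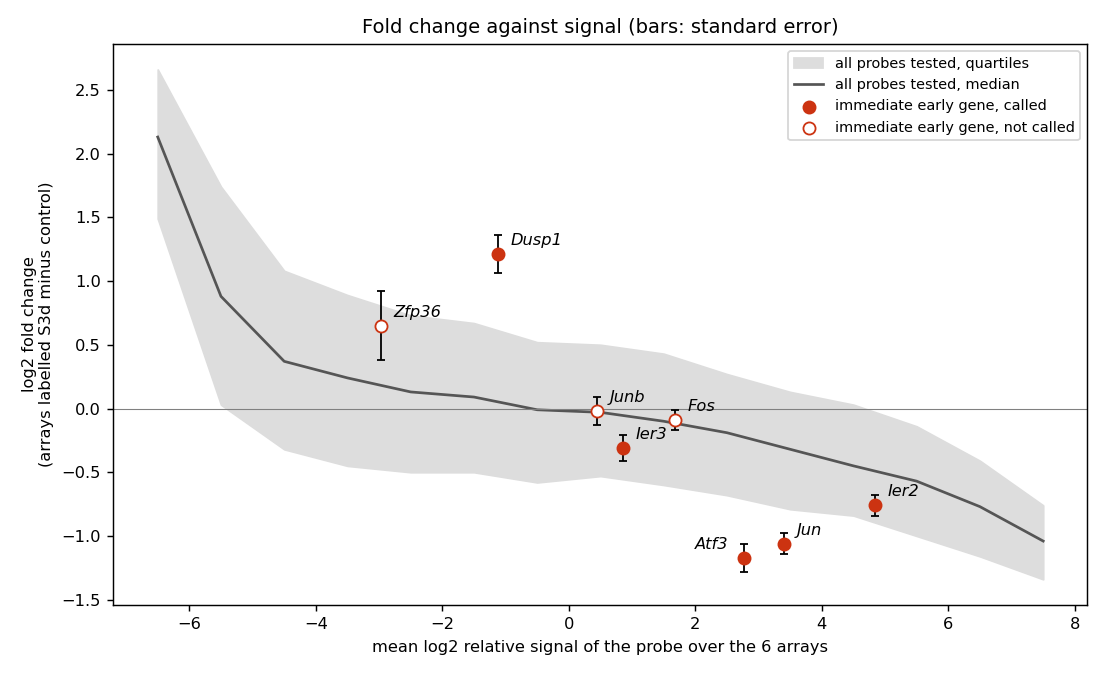
Difference of each of the 8 genes (log2, S3d minus control by the scanner labels, bars are SE) against its mean level over the 6 arrays, over the median (line) and quartiles (band) of all probes tested in steps of 1 log2 unit. The median of all probes falls with signal. Dusp1 lies above the band, Jun and Atf3 lie below it, and the other 5 genes lie within it.

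Jun, Atf3 and Dusp1 kept their direction and call under quantile normalization, median centring and cyclic loess. Jun was -0.77, -1.25 and -0.73 under these (log2), Atf3 was -0.96, -1.36 and -0.92, and Dusp1 was 1.15, 1.02 and 1.17. Under cyclic loess, an alternative added after the data had been seen, 1 gene was called higher where 36.8% of all probes were, and 3 were called lower where 34.7% were. Ier3 was the call lost there (-0.23, adjusted p = 0.071), and Ier2 shrank to -0.27 (adjusted p = 0.015). Fos was -0.27 under median centring (adjusted p = 0.02) and 0.06 under cyclic loess, so its sign depended on the scaling.

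Under normexp background correction of the spots' median signal, none of the 8 genes was called, and none had an unadjusted p under 0.05 in limma, where 5.59% of all probes were called. Jun was -0.51, Atf3 -0.58 and Dusp1 0.54 (log2; adjusted p = 0.33, 0.30 and 0.29). The median signal itself, with no background correction and an alternative added after the data had been seen, gave 1 gene higher (24.3% of all probes) and 3 lower (52.3%), with Jun at -0.98, Atf3 at -1.02 and Dusp1 at 1.06. Zfp36 turned to -0.61 under normexp (adjusted p = 0.41) and was 0.21 on the uncorrected median signal. The normexp setting moved the median of all probes to -0.68, and relative to it all 8 genes were between 0.07 and 1.22 higher. The signs of Jun, Atf3, Ier2, Ier3, Fos and Junb relative to that median therefore flipped. The genes were not set beside probes of like signal under normexp, so the flip is relative to the median of all probes only.

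**Figure D4:**
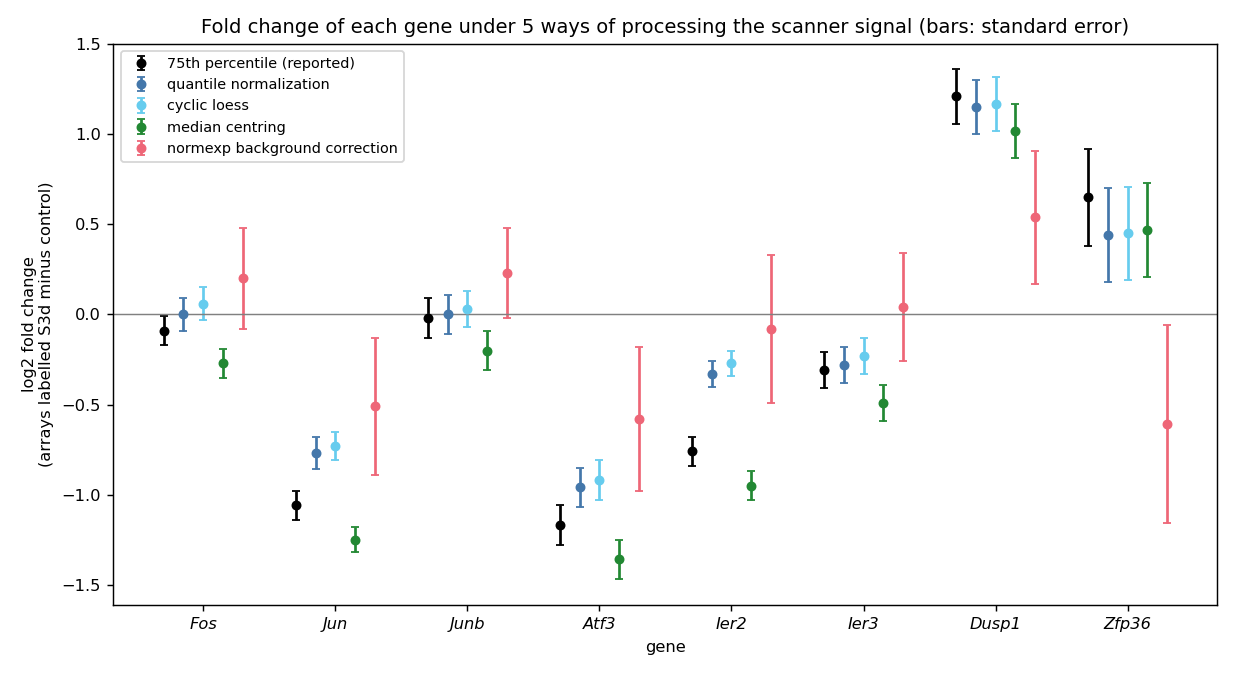
Difference of each of the 8 genes (log2, S3d minus control by the scanner labels, bars are SE) under the 75th percentile scaling, quantile normalization, cyclic loess, median centring and normexp background correction. Jun, Atf3 and Dusp1 keep their sign throughout, with wide bars under normexp, where Zfp36 turns from 0.65 to -0.61.

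The deposited normalized table, under its own labels, gave Jun, Ier2, Ier3 and Atf3 as higher and Dusp1 as lower in S3d. These 4 stood beside 35.3% of all probes called higher, and Dusp1 beside 34.7% called lower. The mean log2 value of Jun was 12.64 in control and 13.41 in S3d, a difference of 0.77 (adjusted p = 0.00051). That of Atf3 was 11.91 and 12.87, a difference of 0.96 (adjusted p = 0.00047). Dusp1 fell from 9.13 to 7.98, a difference of -1.14 (adjusted p = 0.00088). Ier2 (0.32, adjusted p = 0.0065) and Ier3 (0.28, adjusted p = 0.04) differed less. Fos was 11.33 in both groups (adjusted p = 0.99), Junb was 10.1 in both (adjusted p = 1.0), and Zfp36 gave -0.43 (adjusted p = 0.18). The table holds the same arrays, so these values add no samples. Both sources put Dusp1 opposite to Jun, Atf3, Ier2 and Ier3.

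Other genes of the pathway were taken from 4 lists, of which the first held 23 further transcription factors of the early response. In the scanner files, 22 of the 23 were tested, 2 were called higher and 15 lower, and their median difference was -0.54 (log2). Over all probes, 39.4% were called higher and 34.5% lower, with a median of 0.08, and the counts of the other lists are read beside the same shares. Calls are of the brightest probe of a gene, and 2 of the 15 lower had another probe called higher, Klf10 (-0.30 and 0.81) and Klf6 (-0.60 and 1.23). Ier5, an early response gene tied to the heat shock factor, went from -0.94 ± 0.10 to -3.36 ± 0.15 (SD), a difference of -2.43 ± 0.10 (log2, SE; adjusted p = 1.5e-05). Cebpd, a C/EBP factor of acute inflammation, went from 4.85 to 2.87, a difference of -1.98 ± 0.15 (adjusted p = 7.7e-05). The 2 called higher were Fosl1, a Fos relative, and Csrnp1. Fosl1 differed by 1.17 ± 0.24 (adjusted p = 0.0049), with the opposite sign under normexp (-0.71). Csrnp1 differed by 0.96 ± 0.08 on its brighter probe (adjusted p = 9.9e-05) and by 0.14 on the other (adjusted p = 0.20).

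The second list held 30 effectors and feedback regulators of the early response, of which 25 were tested, with 3 called higher, 14 lower and a median of -0.55 (log2). Phlda1 differed by -1.82 ± 0.11 (adjusted p = 4.2e-05) and by -3.10 on its other probe. Zfp36l2, a relative of Zfp36 that also binds AU-rich transcripts, differed by -1.50 ± 0.07 (adjusted p = 2e-05) and by -0.82 on its other probe. Trib1, a pseudokinase, was higher by 0.77 ± 0.09 (adjusted p = 0.00058). Gadd45a, a stress and DNA damage gene, was higher by 0.62 ± 0.08 (adjusted p = 0.00053).

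Of 30 MAP kinase cascade genes and the factors they act on, 24 were tested, with 7 called higher, 10 lower and a median of -0.01 (log2). Elk4, called higher at 0.28, was called lower on its other probe at -0.57. Mapk3, which encodes ERK1, was higher by 0.80 ± 0.07 (adjusted p = 0.00016). Mapkapk2, a kinase below p38 that phosphorylates ZFP36, differed by -1.18 ± 0.07 (adjusted p = 3.4e-05). The balance of this list turned with the scaling, with 11 higher and 8 lower under quantile normalization, 11 higher and 7 lower under cyclic loess, and 5 higher and 11 lower under median centring.

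Of 10 AU-rich transcripts known as targets of ZFP36, 6 were tested, with 2 called higher, 2 lower and a median of -0.18 (log2). Vegfa, the endothelial growth factor, went from 1.76 to -0.44, a difference of -2.20 ± 0.07 (adjusted p = 1.1e-05), and gave -1.57 on its other probe. Cxcl1, a neutrophil chemokine, differed by -1.31 ± 0.45 (adjusted p = 0.037). The 2 called higher, Tnf and Il3, were not well above background on all 6 arrays. Il2, Il6 and Ptgs2 were well above background on none.

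The lists were counted under the other settings too. Over all probes, 35.0% were called higher and 35.6% lower under quantile normalization, and 32.3% and 41.6% under median centring. The transcription factors gave 3 higher and 13 lower under quantile normalization, 4 and 13 under cyclic loess, 2 and 17 under median centring, and 19 and 1 without scaling between arrays. The effectors gave 3 and 14, 4 and 13, 3 and 18, and 22 and 0. Without scaling, 22 MAP kinase genes were higher and 1 lower, and 4 ZFP36 targets were higher and 1 lower. In the deposited table under its own labels, 13 were higher and 3 lower among the transcription factors and likewise among the effectors. There were 8 and 11 in the MAP kinase list and 3 and 2 among the ZFP36 targets. Under normexp, 3 transcription factors, 1 effector and 1 ZFP36 target were called lower, and no MAP kinase gene was called.

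**Figure D5:**
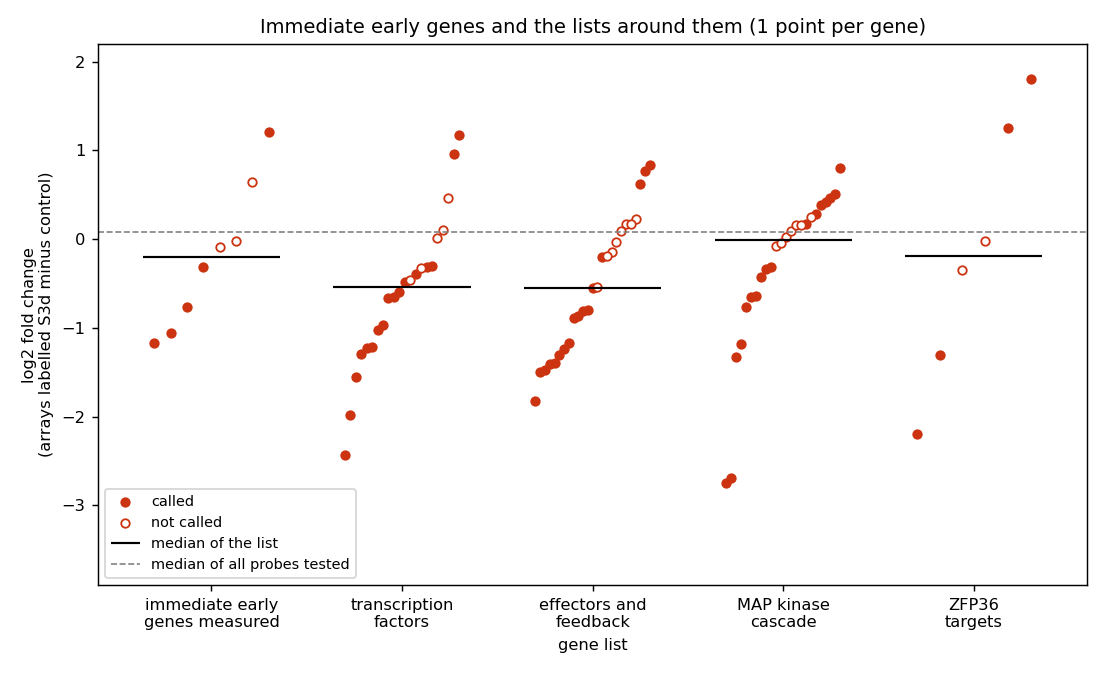
Difference of each gene (log2, S3d minus control by the scanner labels, brightest probe) for the 8 immediate early genes and for the tested genes of the 4 lists, with called genes filled, list medians as black bars and the median of all probes tested as a dashed line. The medians of the transcription factors (-0.54) and of the effectors (-0.55) lie below 0.08, and the immediate early genes lie between -1.17 and 1.21.

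Markers of the cell types in the gut wall were counted too, beside the 39.4% of all probes called higher and 34.5% called lower. Of 11 enterocyte markers tested, 9 were called lower and 1 higher, with a median of -0.96 (log2), and their summed relative signal was 3670 to 4080 on the control arrays and 1590 to 1660 on the S3d arrays. Bright probes as a whole were also lower. The median difference of all probes was -0.57, -0.77 and -1.04 at mean levels of 5 to 6, 6 to 7 and 7 to 8. Under quantile normalization the enterocyte markers gave 3 higher and 2 lower, and under cyclic loess 3 higher and 4 lower. Without scaling between arrays, 10 enterocyte markers were called higher and 0 lower. Of 6 leukocyte markers tested, 5 were lower and 1 higher (summed 6.6 to 6.98 and 4.47 to 4.7), and Ptprc, called lower at -2.64, was called higher on another probe at 0.69. All 3 erythrocyte markers were lower, at a summed 3.59 to 4.03 and 0.638 to 0.915. Without scaling, 5 leukocyte markers were higher and 1 lower, and 1 erythrocyte marker was higher and 1 lower.

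Smooth muscle markers were split, 2 higher and 2 lower of 6 (summed 122 to 147 and 115 to 135). The 2 higher were called lower on their other probes, Myh11 at 0.98 and -0.92 and Smtn at 0.30 and -1.39 (log2). Endothelial markers gave 1 higher and 1 lower of 4 (6.14 to 7.64 and 7.84 to 8.19). Of 5 neuron and glia markers tested, 2 were higher and none lower (1.8 to 1.93 and 2.0 to 2.18), with S100b above background on no array. Under quantile normalization and cyclic loess the neuron and glia markers gave 2 higher and 2 lower, and under median centring 2 higher and 3 lower. Without scaling, 5 neuron and glia, 6 smooth muscle and 4 endothelial markers were higher and 0 of each lower. The part of these cell types in the differences of Jun, Atf3, Ier2, Ier3 and Dusp1 was not tested.

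Among 10387 other named genes well above background on all 6 arrays, those whose centred levels ran closely with Fos over the 6 arrays included Ubl5 and Hsd3b7 (root mean square difference 0.035 log2 for each). Their own differences between the groups were -0.08 and -0.05 (log2), neither called, so the likeness is one of small array-to-array steps.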

How the data were processed

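Jejunal RNA of 3 control and 3 S3d samples was labelled with Cy3 and hybridised to Agilent rat arrays. The authors deposited Feature Extraction 10.7.3.1 scanner files, from which the processed signal, a background-corrected spot intensity, was used. They also deposited a table of normalized log2 values, used here as an alternative; its normalization method is not given in the sources used here.

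Intensity was divided by each array's 75th percentile over non-control spots and taken as log2. Outlier spots were dropped and repeated spots averaged. A probe was tested where every array of control, or every array of S3d, had it well above background (31367 of 41012 probes). Groups were compared with lmFit and eBayes in limma 3.58.1 (R 4.3.3) with Benjamini-Hochberg adjustment, called at an adjusted p under 0.05. Tables and figures used Python 3.11.15, pandas 2.3.3, numpy 2.4.6 and matplotlib 3.10.9. The procedure was tested on simulated data. No per-sample column was left unmapped. The number of arrays limits the precision.

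Gene names came from RefSeq (GRCr8) by accession for 17512 probes. The array coordinates are of another build and none are printed. The genes named were the 10 listed, from each list the 2 largest rises and 2 largest falls called and above background on all 6 arrays (brightest probe), the 3 genes closest to Fos, and the genes the text names for a count of 5 or fewer or for a probe above background on no array, these last chosen after their values were seen. Some genes that the rule names are not reported here. Members, lists and motifs were chosen with earlier results of these data known. Alternatives were other scalings, normexp (offset 50, on the spots' median signal), the filter, outlier spots, the table, the replicate block, the methods' analysis of variance, and each array left out. Cyclic loess and the uncorrected median signal were added later.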

Additional observations from a re-analysis of the deposited data

How the results depend on the processing

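Over 18 alternatives each, Jun, Atf3 and Ier2 kept direction and call in 15 and Dusp1 in 16, while Ier3 kept them in 7. Without scaling between arrays, 8 genes were called higher and 0 lower, 8 did not overlap and the median was 1.65 (log2), where 94.2% of all probes were called higher. The values were Fos 1.76, Jun 0.78, Junb 1.83, Ier2 1.08, Ier3 1.54 and Atf3 0.67. Under normexp, 0 were called in either direction (0 at an unadjusted p under 0.05 in limma), 0 did not overlap and the median was -0.02, with Fos 0.20, Junb 0.23, Ier3 0.04 and Zfp36 -0.61, and the lists had 3 transcription factors, 1 effector, 0 MAP kinase genes and 1 ZFP36 target called. Over all probes 23186 were called, and 1754 under normexp. The median signal with no correction, added after the data were seen, gave 1 higher and 3 lower, Junb 0.10, and 24055 probes called. The cause of the losses under normexp was not tested further. The deposited table, whose labels oppose those of the scanner files, gave 4 higher and 1 lower with a median of 0.14, and Jun 0.77, Junb 0.00, Ier2 0.32, Ier3 0.28, Atf3 0.96, Dusp1 -1.14 and Zfp36 -0.43. Median centring moved the median to -0.38. Cyclic loess, added after the data were seen, gave Fos 0.06 and Junb 0.03.

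With the replicate block, 2 genes were called higher and 3 lower (Zfp36 gained at an adjusted p of 0.0063, Ier3 lost at 0.078), with 22212 of 31367 probes called. The correlations of deviations of same-numbered samples were 0.02, 0.022 and -0.049, so the numbers were not taken as pairs. Under the methods' analysis of variance, Ier3 was not called (adjusted p = 0.054). With each array left out in turn, 1 to 2 genes were called higher and Junb ran from -0.11 to 0.05. The processed signal of Zfp36 was 29.4 to 57.1 on the control arrays. The part of low signal in its spread was not tested.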
